A study of Trametes coccinea with 18 samples.

Results

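The transcriptome of the white-rot fungus Pycnoporus coccineus CIRM-BRFM 310 (Pycco 310, named Trametes coccinea in the labels) was compared between mycelium grown on aspen wood and mycelium grown on maltose. All sequenced cultures labelled aspen or maltose were taken, which gave 3 aspen and 3 maltose cultures of the 18 in the series, and all 12690 gene models were kept. By the labels, the aspen medium held 15 g/l of aspen together with 2.5 g/l of maltose, and the maltose medium held 20 g/l of maltose, so that both groups had the sugar in different amounts. The study's methods instead describe the wood as the only carbon source, and the sources used here do not settle which holds. Both groups were the same single strain, collected on day 3 of liquid culture at 30 °C, and the study describes the triplicates as independent cultures. The libraries on Avicel (a microcrystalline cellulose), pine and wheat straw were used only to show where aspen differed from them.

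White-rot fungi take wood apart with enzymes that they secrete. Peroxidases of family AA2 oxidise lignin with hydrogen peroxide, and oxidases of families AA3 and AA5 are known as sources of that peroxide. Lytic polysaccharide monooxygenases (LPMOs, family AA9) and glycoside hydrolases (GH) cut cellulose and hemicelluloses, carbohydrate esterases (CE) remove their side groups, and a carbohydrate-binding module named CBM1 holds many of these enzymes to cellulose. Small aromatic compounds released from lignin are taken up, hydroxylated and cleaved inside the cell, and many of these genes are known to be less transcribed when an easy sugar is plentiful.

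The 6 libraries held between 29889534 and 35011152 counts, and each library's 10 most abundant genes took 6.83 to 9.53% of them. A library in each group stood apart from its replicates. Chi-square divided by its degrees of freedom (1 for sampling noise alone) was 23.5 between maltose 1 and 2 but 136 to 143 between either and maltose 3, and it was 47.9 between aspen 2 and 3 but 109 to 114 between either and aspen 1. Levels are given as CPM, the count scaled to a common library size, after TMM scaling (normalized CPM), and genes are compared with each other only in RPKM, which also divides by length. Both are shares of a library, so less RNA of a gene per cell and fewer cells with that RNA cannot be told apart. A gene is said to have risen or fallen when its adjusted p in edgeR's quasi-likelihood test was under 0.05 and its log2 fold change exceeded 1 in size.

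Of 11112 gene models tested, 2170 rose on aspen (19.5%) and 1644 fell (14.8%), which is 34.3% in either direction. The median log2 fold change over all tested models was -0.02. Large changes were more often rises, and rises were also more numerous to begin with. On the log2 scale 508 genes rose and 191 fell by more than 3, and beyond 6 there were 74 rises and 25 falls. Among the genes that rose, 476 had a mean under 1 normalized CPM on maltose, and among those that fell, 180 had a mean under 1 normalized CPM on aspen. The risen genes, chosen for being higher, took 38.6, 40.1 and 39.1% of the counts in the aspen libraries and 8.69 to 9.25% in the maltose libraries. The fallen genes took 31.6 to 33.1% of the counts on maltose and 6.77 to 7.50% on aspen. With maltose 3 and aspen 1 both left out, an alternative chosen after seeing the data, 2133 genes rose and 1488 fell, of which 1901 and 1288 were the same genes as before.

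**Figure D1:**
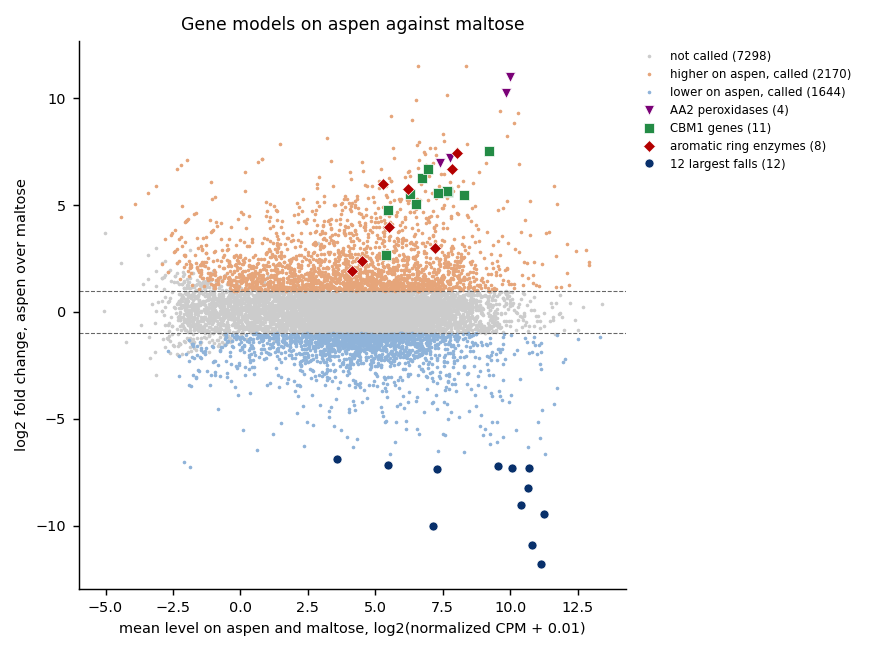
Each point is 1 of the 11112 gene models tested, with the mean level over both groups on the x axis (log2 of normalized CPM + 0.01) and the log2 fold change of aspen over maltose on the y axis. Dashed lines mark a change of 1, and the 4 AA2 peroxidases lie between 6.98 and 11.00 while the 12 largest falls lie between -6.89 and -11.78.

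Enzyme families were known for the 330 gene models that the study's tables annotate, and those tables hold genes the study selected from these same libraries as raised on a plant substrate or as coding for secreted proteins. The counts of annotated members that rose are therefore not independent evidence of a direction, and family members outside the tables were not analysed here as such. Of the 121 genes in the study's list for aspen, 121 rose, against 19.5% of all genes tested. Of the 168 genes listed for pine or wheat straw but not for aspen, 102 rose on aspen, 1 fell and 65 were not called, with a median log2 fold change of 1.11. The gene that fell, 1436847, carries the annotation of an ABC transporter and had a log2 fold change of -1.74 ± 0.35 (adjusted p = 5.31e-04 by edgeR). It was at 56.4, 48.5 and 89.0 normalized CPM on maltose and at 18.8, 21.2 and 18 on aspen, and its mean on pine was 923. No other annotated gene fell.

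The 4 annotated AA2 peroxidases all rose, and each had its 3 aspen libraries above its 3 maltose libraries, as 32.6% of all tested models did. All 4 were on the study's list for aspen. AA2 1431101 was at 0.974, 0.969 and 1.03 normalized CPM on maltose and at 1870, 2844 and 1394 on aspen. AA2 1468611 was at 0.909, 1.64 and 1.90 on maltose and at 1567, 2562 and 1379 on aspen. Both genes were thus at 1.90 normalized CPM or less in every maltose library and at 1379 or more in every aspen library. Their log2 fold changes were 11.00 ± 0.57 (SE, adjusted p = 1.46e-09) and 10.27 ± 0.67 (adjusted p = 8.31e-09) by edgeR. AA2 1464049 went from between 2.01 and 4.59 normalized CPM to between 398 and 486, a log2 fold change of 7.20 ± 0.37 (adjusted p = 1.46e-09). AA2 1436321 went from between 1.85 and 4.08 to between 250 and 496, a log2 fold change of 6.98 ± 0.69 (adjusted p = 5.55e-07). In RPKM, 1468611 and 1431101 had the higher means on aspen (1594 and 1492), ahead of 1464049 (374) and 1436321 (251).

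The same 4 peroxidases parted when aspen was set against the other wood and straw. In the same fit, 15.0% of models were higher on aspen than on Avicel and 10.3% lower, 7.60% were higher and 9.39% lower than on pine, and 6.51% were higher and 4.13% lower than on wheat straw. AA2 1431101 averaged 1.04 normalized CPM on Avicel, 14.8 on pine and 22.4 on wheat straw, and aspen exceeded them by 10.94 ± 0.57, 7.11 ± 0.48 and 6.51 ± 0.47 on the log2 scale (largest adjusted p by edgeR = 2.87e-07). AA2 1464049, whose gene lies next to it, exceeded them by 8.27 ± 0.39, 6.90 ± 0.37 and 3.14 ± 0.30 (largest adjusted p = 4.94e-06). AA2 1468611 was 9.97 ± 0.66 above Avicel and 1.48 ± 0.45 above wheat straw (adjusted p = 0.0311), but its difference from pine was 0.65 ± 0.45 (adjusted p = 0.277). AA2 1436321 was 6.69 ± 0.68 above Avicel, and its differences from pine (-0.29 ± 0.53, adjusted p = 0.703) and wheat straw (-0.61 ± 0.53, adjusted p = 0.443) did not pass the test. All 4 were therefore above Avicel, and only the adjacent pair, 1431101 and 1464049, was also above both pine and wheat straw by more than 3 on the log2 scale. Within pine, 1468611 ranged from 401 to 2063 normalized CPM over 3 libraries, a spread that its comparison with aspen carries.

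A group of enzymes annotated as acting on aromatic compounds was put together after their values had been seen, from annotations of ring hydroxylation, ring cleavage and cinnamoyl-CoA reduction, and 4 of them were on the study's list for aspen. All 8 rose, where 19.5% of all tested models did, but a group assembled in this way gives no support to a direction. They had log2 fold changes from 1.93 to 7.46. Gene 1435541, annotated as a flavonol or cinnamoyl-CoA reductase (an enzyme type of phenylpropanoid metabolism), was at 3.18, 2.64 and 3.04 normalized CPM on maltose and between 499 and 543 on aspen (log2 fold change 7.46 ± 0.55, adjusted p = 2.95e-08). Gene 1442642, a homogentisate dioxygenase of the type that opens the ring in tyrosine breakdown, was at 4.29, 3.33 and 5.46 on maltose and at 374, 543 and 434 on aspen (6.69 ± 0.77, adjusted p = 2.68e-06). Gene 1433039 is named a phenol monooxygenase here from its orthologous group, KOG3855, and its substrate was not tested. It was at 2.08, 1.73 and 4.19 on maltose and at 140, 188 and 114 on aspen (5.78 ± 0.37, adjusted p = 7.43e-09). In each of these genes every aspen library lay far above every maltose library. The other members included the flavoprotein monooxygenases 1411633 (5.97 ± 0.41) and 1439160 (2.40 ± 0.26). Genes 1463192 (3.96 ± 0.46) and 1433057 (1.93 ± 0.36) are named phenol monooxygenases from the same group, KOG3855. The last member was the hydroxyquinol dioxygenase 1387624 (3.01 ± 0.28), which splits the ring of a lignin-derived intermediate.

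Against pine these enzymes differed in direction, with 5 higher and 3 lower on aspen, where 7.60% and 9.39% of all tested models were. The reductase 1435541 averaged 6.44 normalized CPM on pine and was 6.34 ± 0.53 higher on aspen on the log2 scale (adjusted p by edgeR = 1.45e-06). The dioxygenase 1442642 was 5.13 ± 0.71 higher on aspen than on pine, and the monooxygenases 1433039 and 1411633 were 5.93 ± 0.38 and 5.01 ± 0.39 higher. The hydroxyquinol dioxygenase 1387624 was 3.24 ± 0.29 higher. The other 3 went the other way and were lower on aspen than on pine: 1463192 by -1.57 ± 0.41, 1439160 by -1.85 ± 0.25 and 1433057 by -2.75 ± 0.36, the last with an adjusted p of 1.02e-04. Against wheat straw the reductase was 4.6 ± 0.48 higher and the phenol monooxygenase 1433039 was 3.07 ± 0.32 higher, while the phenol monooxygenase 1433057 was lower on aspen (-1.86 ± 0.35, adjusted p = 0.00205). The homogentisate dioxygenase was 2.63 ± 0.63 higher than on wheat straw (adjusted p = 0.00972), where its 3 libraries were at 168, 16.6 and 33.6 normalized CPM and so differed widely among themselves. Differences from wheat straw of 0.20 ± 0.32 for 1411633 (adjusted p = 0.703) and 0.65 ± 0.26 for 1387624 (adjusted p = 0.0923) did not pass the test.

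**Figure D2:**
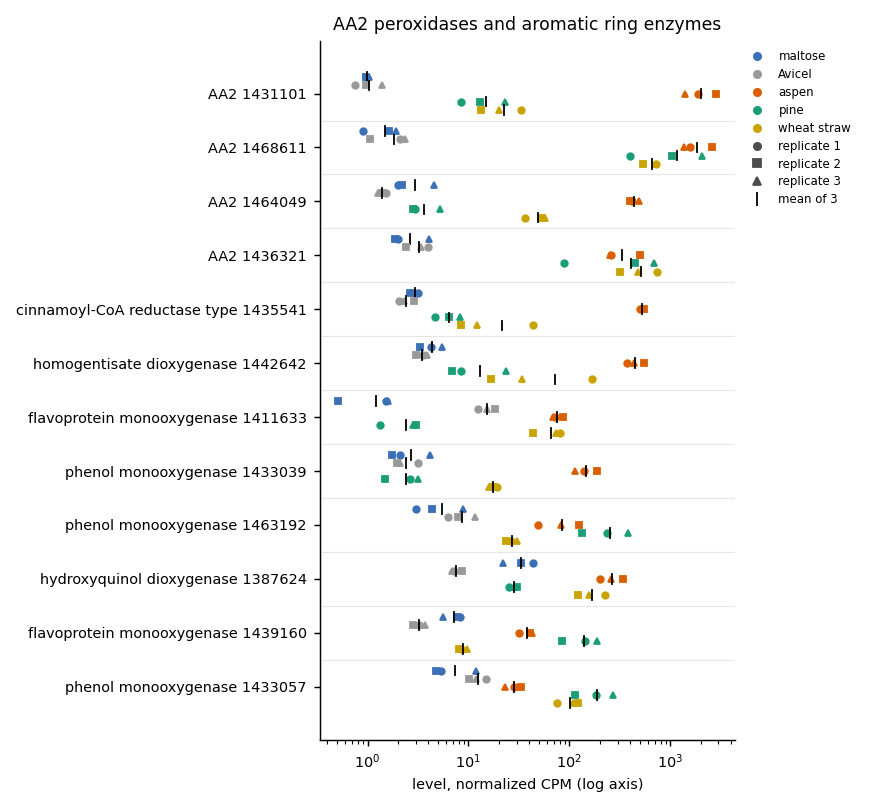
Level of 4 AA2 peroxidases and 8 aromatic ring enzymes in normalized CPM (log axis) in the 15 libraries of 5 carbon sources, with 1 marker per replicate and a black bar at the mean of 3. On aspen, AA2 1431101 sits between 1394 and 2844 while every maltose and Avicel library is at or below 1.40.

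Oxidases of families known to make hydrogen peroxide rose as well. The 4 annotated genes of the glucose-methanol-choline (GMC) and copper radical oxidase families rose, where 19.5% of all tested models did. They were 3 oxidases and the cellobiose dehydrogenase 1401955, which is described with the cellulose genes. Gene 1368318 of family AA3_3, which holds alcohol oxidases, was at 3.96, 4.51 and 6.35 normalized CPM on maltose and at 1208, 2791 and 2773 on aspen (8.83 ± 0.68, adjusted p = 4.32e-08 by edgeR). Its level in aspen 1 was thus the lowest of the aspen libraries, though still far above maltose. Gene 1429888 of AA3_2, the family of aryl-alcohol and glucose oxidases, rose by 6.88 ± 0.41. Gene 1480943 of AA5_1, the family of glyoxal oxidase, rose by 6.15 ± 0.68, from at most 8.90 normalized CPM on maltose to 773, 679 and 347 on aspen, and it was also 2.61 ± 0.58 above pine (adjusted p = 0.0036) and 1.82 ± 0.56 above wheat straw (adjusted p = 0.032). For 1368318 the differences from pine (0.80 ± 0.49, adjusted p = 0.215) and wheat straw (1.07 ± 0.49, adjusted p = 0.133) did not pass. No gene was annotated as a laccase in the tables, so laccases were not analysed here.

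Genes for the breakdown of cellulose rose on aspen and part of them stayed under their level on pure cellulose. All 11 annotated genes with a CBM1 module rose, where 19.5% of all tested models did. None was from the study's list for aspen, but all came from its gene clusters rich in secreted proteins. Those clusters were made from these same libraries, so the shared rise and the shared pattern against Avicel are not independent evidence. Log2 fold changes of the 11 genes ran from 2.69 to 7.54, with a median of 5.59. Cellobiohydrolase 1357326 (CBM1-GH6), which releases cellobiose from chain ends, was at 3.21, 2.42 and 13.5 normalized CPM on maltose and at 1137, 866 and 1551 on aspen (7.54 ± 0.89, adjusted p = 3.28e-06). It had the highest mean RPKM on aspen of the CBM1 genes (851), ahead of the LPMO 1428145 (AA9-CBM1, 627) and the LPMO 1382161 (338). The LPMOs rose by 5.47 ± 0.57 and 5.65 ± 0.60, and the third, 1466495, which carries no CBM1, rose by 5.83 ± 0.92 but reached no more than 19.0 normalized CPM. Cellobiose dehydrogenase 1401955 (AA8-AA3_1), an electron donor to LPMOs, rose by 5.66 ± 0.71. The largest rise in the group was that of 1433077, an endoglucanase of GH45 without CBM1, from at most 2.50 to 345, 222 and 312 normalized CPM (7.67 ± 0.51, adjusted p = 1.03e-08).

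Of the 11 cellulose and beta-glucan hydrolases, 10 rose, where 19.5% of all tested models did, and 1 was not called. The cellobiohydrolases of GH7, 1366028 and 1389216, rose by 5.99 ± 0.69 and 5.34 ± 0.86. The endoglucanase 1434718 (CBM1-GH5_5) and the GH12 genes 1358049 and 1375723 rose by 6.30 ± 0.62, 5.80 ± 0.65 and 5.20 ± 0.93. The study names 1358049 as potentially active on hemicellulose. The glucanase 1467772 (GH131-CBM1) rose by 5.59 ± 0.82. Among beta-glucosidases of GH3, which split cellobiose, 1411666 rose by 4.70 ± 0.35 and 1404940 (CBM1-GH3) by 2.69 ± 0.62. The third, 1434274, was at 42.6, 41.3 and 52.8 normalized CPM on maltose and at 25.3, 53.0 and 57.7 on aspen, a log2 difference of -0.01 ± 0.42 (adjusted p = 0.988), and its groups overlapped.

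Compared with Avicel, 6 of the 11 CBM1 genes were lower on aspen, where 10.3% of all tested models were. Of the rest, 5 did not pass the test and none was higher. The median log2 difference was -1.42 against -0.03 for all genes tested. Among the CBM1 genes, the glucanase 1467772 differed by -2.39 ± 0.71 (adjusted p = 0.0119) and the LPMO 1382161 by -1.88 ± 0.50 (adjusted p = 0.00622). The cellobiohydrolase 1389216 and the dehydrogenase 1401955, which carry no CBM1 in the tables, differed by -2.62 ± 0.76 (adjusted p = 0.0103) and -2.31 ± 0.61 (adjusted p = 0.00581). For the CBM1 gene 1357326 the difference was -0.74 ± 0.67 (adjusted p = 0.382). Against pine, 6 of the 11 CBM1 genes were higher on aspen, where 7.60% of all tested models were. Against wheat straw 5 were, where 6.51% of all tested models were. The endoglucanase 1434718 was among both, by 3.63 ± 0.54 and 3.58 ± 0.54. The CBM1 genes summed to 9629, 10258 and 9974 normalized CPM on Avicel, to 4075, 2616 and 4909 on aspen and to 50.2, 47.1 and 116 on maltose. On pine the sums were 1807, 4286 and 631, which overlapped those on aspen. On wheat straw they were 735, 2407 and 1722.

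The aspen libraries did not rank alike for these enzymes. Aspen 2 had the lowest sum of the CBM1 genes (2616 normalized CPM) and the highest sum of the 4 AA2 genes (6301, against 4112 in aspen 1 and 3510 in aspen 3). On the maltose side, maltose 3, whose summed AA2 level was 11.6 normalized CPM against 5.91 and 6.67 in the other two, also had the highest sum of CBM1 genes (116). What set these libraries apart was not tested.

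**Figure D3:**
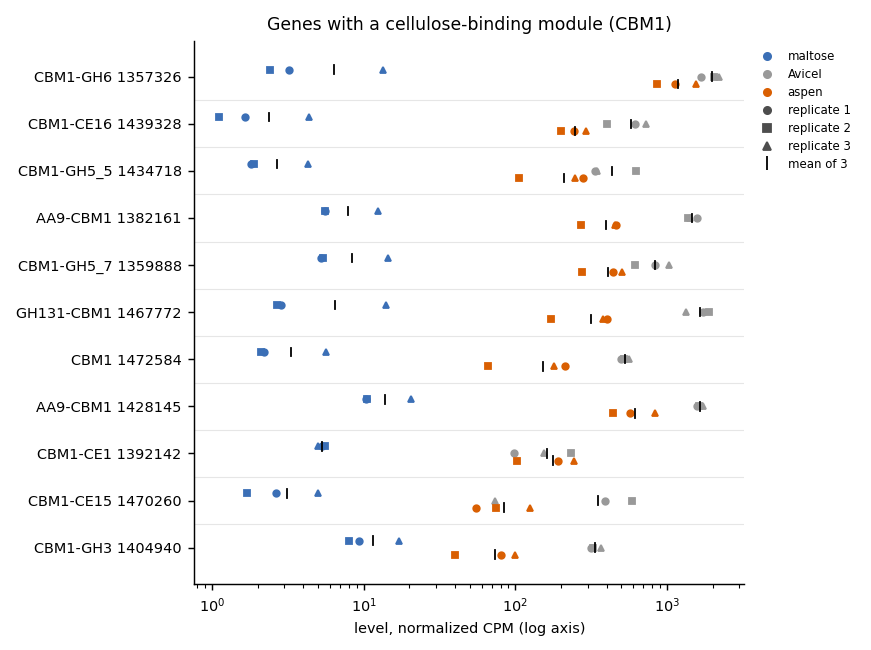
Level of the 11 genes with a CBM1 module in normalized CPM (log axis) in the 9 libraries on maltose, Avicel and aspen, with 1 marker per replicate and a black bar at the mean of 3. For 1357326 the aspen libraries sit between 866 and 1551 and the maltose libraries at or below 13.5, and aspen 2 (square) is the lowest aspen library for every gene but 1470260.

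All 13 annotated genes grouped here under xylan, the main hemicellulose of hardwood, rose, where 19.5% of all tested models did. Of these genes, 7 were on the study's list for aspen. The endoxylanase 1395316 (GH10) was at 0.844, 0.848 and 1.61 normalized CPM on maltose and at 390, 378 and 311 on aspen (8.34 ± 0.40, adjusted p = 1.16e-09 by edgeR). The esterase 1377160 of family CE1, which holds acetyl xylan and feruloyl esterases, was at 1.04, 1.70 and 1.61 on maltose and at 336, 464 and 316 on aspen (8.0 ± 0.44, adjusted p = 2.07e-09). Neither overlapped between groups, and both stood out against the other plant substrates. The study had already found both genes in the same cluster as AA2 1431101 and AA2 1464049. That cluster was made from these same libraries, so the shared pattern of these genes is not independent evidence. The endoxylanase was 7.95 ± 0.40, 6.6 ± 0.37 and 7.0 ± 0.38 higher on aspen than on Avicel, pine and wheat straw on the log2 scale (largest adjusted p = 3.27e-08). The esterase was 6.73 ± 0.41, 5.43 ± 0.38 and 5.54 ± 0.38 higher (largest adjusted p = 2.49e-07). The second GH10 gene, 1435885, rose on aspen by 6.36 ± 0.90 but differed from pine by 0.39 ± 0.70 (adjusted p = 0.697), so the 2 endoxylanases did not share that pattern. That difference between the genes was not itself tested.

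Of the other 11 xylan genes, 2 were higher on aspen than on pine (1426831 and 1392142), 1 was lower and 8 did not pass the test. Of all tested models, 7.60% were higher and 9.39% lower. The alpha-glucuronidase 1426831 (GH115) rose by 6.47 ± 0.55, the GH43 genes 1435501 and 408613 by 6.76 ± 1.08 and 4.14 ± 0.52, the arabinofuranosidase 1357629 (GH51) by 4.99 ± 0.61 and 1357645 (GH30) by 3.82 ± 0.59. The esterases 1439328 (CBM1-CE16), 1392142 (CBM1-CE1), 1470260 (CBM1-CE15, the family of glucuronoyl esterases) and 1373375 (CE16) rose by 6.68 ± 0.77, 5.07 ± 0.46, 4.76 ± 0.69 and 3.75 ± 0.41. The smallest change was that of 1433098 (CE4, polysaccharide deacetylases), 1.73 ± 0.28, and this gene was 2.56 ± 0.28 log2 below its level on pine (a difference of -2.56, adjusted p = 2.40e-05). Of the 13 genes, 8 were higher on aspen than on Avicel and 2 were lower, where 15.0% and 10.3% of all tested models were.

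Among the 7 genes grouped here under pectin, 6 rose, where 19.5% of all tested models did. The polygalacturonases of GH28 1370654, 688728, 1377553 and 1446047 rose by 5.25 ± 0.73, 4.84 ± 0.59, 4.49 ± 0.48 and 4.05 ± 0.27, the pectin methylesterase 1438246 (CE8) by 4.67 ± 0.37 and the rhamnosidase 1434191 (GH78) by 3.76 ± 0.48. The lyase 1466845 (PL8_4) had a log2 fold change of 0.63 ± 0.23 (adjusted p = 0.027), short of the threshold of 1. The study does not name this lyase as active on pectin, so its lack of a call says nothing about pectin genes. The beta-mannanase 1359888 (CBM1-GH5_7) rose by 5.61 ± 0.72 and the alpha-galactosidase 1431843 (GH27) by 1.38 ± 0.26. The invertase-family gene 718112 (GH32) rose by 5.68 ± 0.41 and 320973 (GH76, alpha-mannanases) by 4.66 ± 0.41. Of the 2 annotated genes for starch and maltose, the alpha-glucosidase 1435128 (GH31) rose by 1.59 ± 0.20 and the glucoamylase 1507511 (GH15) by 1.36 ± 0.34. Both are annotated because the study listed them as raised on a plant substrate over maltose, so their direction is not independent evidence. The glucoamylase was at 45.8, 43.0 and 49.5 normalized CPM on maltose and at 66.1, 106 and 184 on aspen, and without aspen 3 its log2 fold change was 0.89 (adjusted p = 0.0292), below the threshold.

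Esterases, peptidases, transporters and reductases rose too. The 3 lipase or carboxylesterase genes, grouped after their values had been seen, rose by 6.49 ± 0.47 (582532), 5.57 ± 0.56 (1437681) and 4.0 ± 0.54 (1439666). All 8 annotated peptidase genes rose, where 19.5% of all tested models did, and 3 of the 8 were on the study's list for aspen. The largest of these rises was 1438837, which the study's table gives the EC number of a tripeptidyl-peptidase while its text counts the gene among those of unknown function. It was at 2.08, 3.36 and 6.35 normalized CPM on maltose and at 1761, 3128 and 2578 on aspen (9.30 ± 0.82, adjusted p = 1.60e-07 by edgeR). Its difference from wheat straw was -0.03 ± 0.57 (adjusted p = 0.981) and from pine 1.08 ± 0.58 (adjusted p = 0.164). Gene 1444114, named tripeptidyl-peptidase I in the tables, rose by 7.63 ± 0.62, and the carboxypeptidase 1437875 by 5.66 ± 0.40.

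Of 8 annotated cytochrome P450 genes, which hydroxylate many small lipophilic and aromatic molecules, 6 rose and 2 were not called. Of all tested models, 19.5% rose. The larger rises were 3.46 ± 0.28 for 1435960 and 3.23 ± 0.31 for 1369748. P450 1362757 was at 303, 142 and 149 normalized CPM on aspen and at 38.8 to 40.1 on maltose (2.33 ± 0.47), and it was also above pine by 2.24 ± 0.47 and above wheat straw by 2.88 ± 0.48 (adjusted p = 0.00268 and 8.02e-04). Of the 8 P450 genes, 1 was higher and 2 were lower on aspen than on pine, where 7.60% and 9.39% of all tested models were. Against wheat straw 2 were higher and 1 was lower, where 6.51% and 4.13% of all tested models were. Whether these counts differ from those shares was not tested. P450 1469032, which rose on aspen by 1.77 ± 0.32, was below its level on pine (-3.72 ± 0.32, adjusted p = 2.42e-06). The uncalled P450 1440117 had a log2 difference from maltose of 0.29 ± 0.31 and was lower on aspen than on wheat straw (-1.18 ± 0.31, adjusted p = 0.0155). Of 7 transporters of the major facilitator superfamily, 6 rose, where 19.5% of all tested models did. The largest rise was that of 1441122 (4.20 ± 0.37), and 1436606 differed by -0.37 ± 0.45 (adjusted p = 0.508). All 11 annotated aldo/keto reductases, short-chain reductases and aldehyde dehydrogenases, enzymes that convert reactive aldehydes and ketones, rose, where 19.5% of all tested models did. Their log2 fold changes ran from 1.02 to 4.70, and 7 of them were on the study's list for aspen. The aldehyde dehydrogenase 1386255 went from 6.69, 6.33 and 4.54 normalized CPM to 129, 182 and 145, which is the rise of 4.70 ± 0.40. None of these 11 genes differed from wheat straw by the same limits, where 6.51% of all tested models were higher and 4.13% lower.

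Several of the strongest rises had no enzyme family in the tables. Gene 1468135, with a predicted signal peptide, was at 0.357, 0.0909 and 0.230 normalized CPM on maltose and at 711, 583 and 682 on aspen (11.5 ± 0.80, adjusted p = 1.48e-08 by edgeR). The maltose values rest on 11, 3 and 8 counts, and the ratio of summed counts was 2951-fold with an exact interval of 1949 to 4708 at 95% that covers counting error only. All 18 library totals are even and how read pairs were counted is not given in the sources used here, so if mates were counted separately such intervals are too narrow. The neighbouring model 448186 rose by 11.54 ± 0.88, from 3, 1 and 2 counts, with a ratio of 3143-fold (1444 to 8566). The 2 models overlap by 69 bases and 448186 has only 25 mappable bases, so the reads of one cannot be told apart from those of the other. Both were high on pine as well, where 1468135 was at 403, 298 and 43.9 normalized CPM, but not on wheat straw, where it was between 4.19 and 5.47. Gene 1437297 rose by 10.19 ± 0.55, from at most 0.574 normalized CPM to 431, 329 and 446.

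Gene 1448556 rose by 9.41 ± 0.45, from between 1.51 and 3.16 normalized CPM on maltose to 1088, 2045 and 1561 on aspen. It was 6.97 ± 0.40 higher on aspen than on pine and only 1.31 ± 0.31 higher than on wheat straw (adjusted p = 0.00953), the reverse of 1437297, which was 4.03 ± 0.40 above wheat straw and differed from pine by 0.25 ± 0.35 (adjusted p = 0.616). Gene 1447350 rose by 8.97 ± 0.46 with no difference from either past the threshold. Counted per length, the risen gene with the highest level on aspen was 1434042, at a mean RPKM of 15403 on aspen and 2232 on maltose, followed by 1444108 (10965 and 5139), 1477226 (9479 and 298) and 270010 (9478 and 165). For 1444108 the rise was small, 1.16 ± 0.31, and without maltose 3 it was 0.96, under the threshold.

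Some of these genes lie side by side. AA2 1464049 and AA2 1431101 are neighbours in the RefSeq order of the Pycco1 assembly, with 1501 bases between them, while the models on either side of the pair, 1382876 (0.46) and 1403742 (0.08), did not reach a log2 fold change of 1. Around 1477222 (9.93 ± 1.03, from 0.0606 to 0.345 normalized CPM up to 159 to 196) a row of 4 neighbouring models rose: 271638 (9.19 ± 0.67), 1477222 itself, 1458725 (3.04 ± 0.36) and 270010 (5.90 ± 0.91). Models 271638 and 1477222 overlap by 160 bases, so their reads cannot be told apart in full. The next model, 1366633, was not called (0.41), and the one after it, 1477226, rose by 5.05 ± 0.43. Of these, 270010 and 1477226 were among the 10 risen genes with the highest RPKM on aspen. On pine 1477222 was at 338 to 525 normalized CPM, and its difference of aspen from pine was -1.16 ± 0.65 (adjusted p = 0.183).

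**Figure D4:**
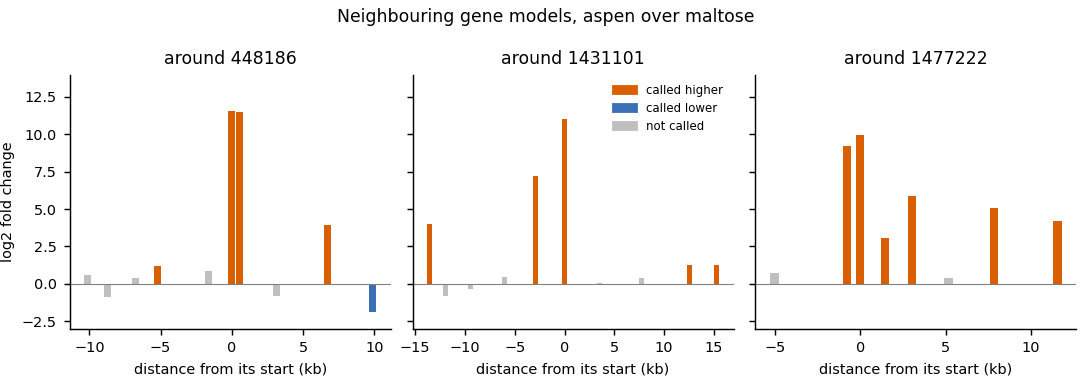
Log2 fold change of aspen over maltose for up to 5 gene models on each side of 448186, AA2 1431101 and 1477222, against the distance of each model's start from that of the centre model in kilobases. Bars are coloured by call, and the tall bar 2894 bases to the left of 1431101 is its neighbour AA2 1464049 at 7.20.

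Over the whole annotation, neighbours shared a direction more often than the overall share of calls. In 10074 pairs of neighbouring tested models, 29.6% of the neighbours of a risen gene had risen, where 19.2% of the models in pairs had, and 23.8% of the neighbours of a fallen gene had fallen, where 14.8% had. Pairs of models that overlap gave higher shares (41.3 and 31.8%), and whether the counting used strand is not given in the sources used here, so shared reads cannot be told apart from shared change there. In pairs 500 or more bases apart the shares were 27.4% for risen genes, against 22.1% of models, and 21.5% for fallen genes, against 15.0%. At least 3 neighbours in a row rose in 109 places (378 genes) and fell in 57 places (195 genes). The longest row of rises held 7 models in 14913 bases, among them 1372078 (5.22) and 739269 (2.97, from a mean of 261 to 2045 normalized CPM). Inside it, 1469827 (1.06) was under the threshold without aspen 1 (0.99) and with library totals alone (0.97), which breaks the row. A row of 6 held 1426850 (6.65) and 1437837 (5.36). It began with 735411 (2.09, a mean of 0.525 normalized CPM on aspen). The adjusted p of 735411 by edgeR was above 0.05 without aspen 2 (0.0597), aspen 3 (0.0632), maltose 1 (0.0942) or maltose 2 (0.091). Another row of 6 ended in the AA3_3 oxidase 1368318, whose 5 companions rose by 1.28 to 1.54. A row of 5 that fell held 1463065 (-2.18), 346141 (-2.44) and 346217 (-1.99), all among the 10 fallen genes with the highest RPKM on maltose.

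Of the 12 genes that fell farthest, 8 were at 1490 normalized CPM or more in every maltose library, and none of the 12 had a family or function in the tables. Gene 1466450 was at 5351, 4939 and 3238 normalized CPM on maltose and at 1.03, 1.88 and 0.908 on aspen, a log2 fold change of -11.78 ± 1.41 (adjusted p = 3.92e-06 by edgeR). Gene 1466629 was at 4221, 4636 and 2043 on maltose and at 1.97, 2.74 and 0.908 on aspen (-10.92 ± 1.44, adjusted p = 1.16e-05). Both were thus at 2043 or more in every maltose library and under 3 in every aspen library. Gene 1434227 went from 5009, 5434 and 4328 to 6.86, 9.84 and 4.48 (-9.44 ± 1.10), and its neighbour 1365112 fell too (-5.73). Gene 1387527, with 308, 349 and 197 normalized CPM on maltose and at most 0.432 on aspen, fell by 10.01 ± 1.26 on the log2 scale. Gene 1434777 fell by 9.06 ± 0.63 and 1437823 by 8.26 ± 0.72, both from 2105 normalized CPM or more in every maltose library. The other 6 (1341371, 1376651, 1427729, 1443074, 1463130 and 825568) had log2 fold changes from -6.89 to -7.34.

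On the other substrates these transcripts were also low, but not to the same depth. Gene 1466450 averaged 164 normalized CPM on Avicel and was lower on aspen by a log2 difference of -7.00 ± 1.18 (adjusted p = 2.01e-04), while its difference from wheat straw was -0.68 ± 1.00 (adjusted p = 0.666). Gene 1434227 averaged 174 on Avicel, a difference of -4.62 ± 0.89 (adjusted p = 6.36e-04). On pine the replicates disagreed: 1466450 was at 94.1, 5.05 and 0.926 normalized CPM, 1466629 at 98.1, 6.47 and 1.25, and 1434227 at 98.0, 6.01 and 4.54. Pine 1 was the highest pine library for all 12 genes. For 1466450 the difference of aspen from pine was -4.71 ± 1.08 (adjusted p = 0.00436), with pine 3 inside the range of the aspen libraries, and the comparison without pine 1 was not run. Gene 1443074 was at 43.2, 28.0 and 38.0 on pine and at 5.05, 13.6 and 12.3 on aspen, with no overlap (-1.82 ± 0.44, adjusted p = 0.00605). Against wheat straw, 2 of the 12 passed the test, 825568 (-2.59 ± 0.48) and 1376651 (-1.08 ± 0.34).

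**Figure D5:**
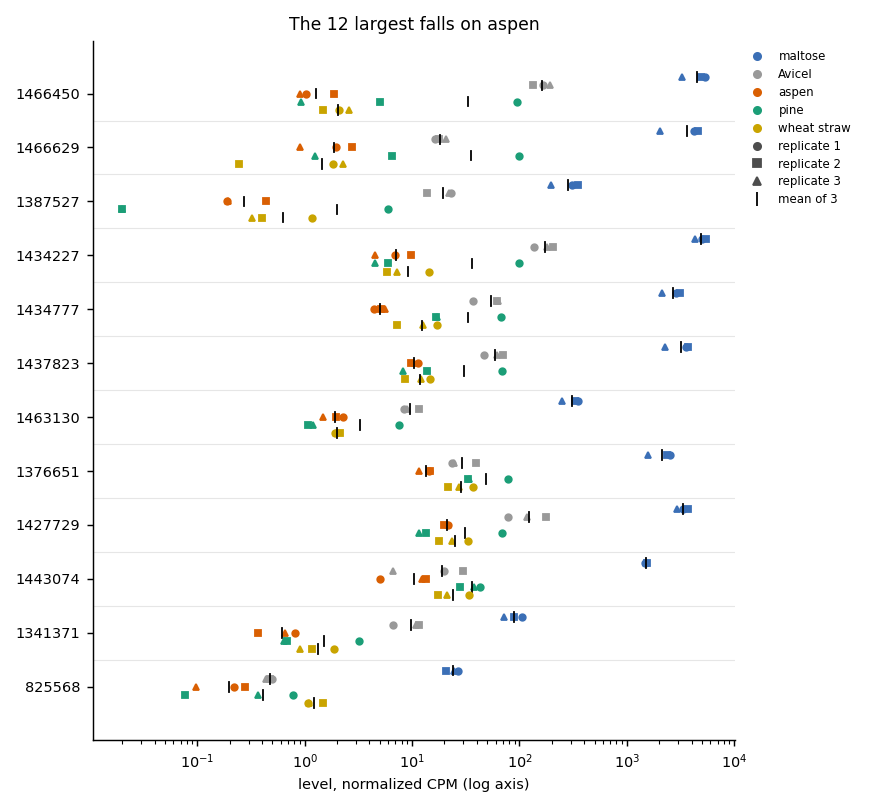
Level of the 12 genes with the largest fall on aspen in normalized CPM (log axis) in the 15 libraries of 5 carbon sources, with 1 marker per replicate, a black bar at the mean of 3 and values under 0.02 drawn at 0.02. Every maltose library lies above every library of the other 4 carbon sources, and the highest pine library is pine 1 (circle) for all 12 genes.

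By RPKM, the fallen gene with the highest level on maltose was 1429921, at a mean of 21049 on maltose and 9128 on aspen. Its fall of -1.15 ± 0.43 (adjusted p = 0.0325) was small, its libraries ran from 8103 to 18341 normalized CPM on maltose and from 4849 to 7078 on aspen, and leaving out any 1 library but maltose 3 raised its adjusted p above 0.05. The next, 1369309, fell far more, from 4452, 4451 and 4249 normalized CPM to 96.0, 54.8 and 72.6 (-5.88 ± 0.59, adjusted p = 5.88e-07). Gene 1369309 was also 3.84 ± 0.54 higher on aspen than on wheat straw (adjusted p = 1.74e-04) and lower than on Avicel by a difference of -3.98 ± 0.54. Genes 1437702 and 1378713 fell by 4.30 ± 0.36 and 4.57 ± 0.45 on the log2 scale, from means of 8034 and 7715 RPKM on maltose to 388 and 313 on aspen. Gene 1464925, at a mean of 9568 RPKM on maltose, fell by 1.25 ± 0.45 (adjusted p = 0.026), and its adjusted p passed 0.05 without aspen 1 (0.0516), aspen 2 (0.108), maltose 1 (0.0684) or maltose 2 (0.0658).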

How the data were processed

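RNA was sequenced from 18 cultures, and the 6 on aspen and maltose are the subject here. Per the labels and the study's methods, the authors aligned reads with TopHat2, counted them per gene model with HTSeq, and named DESeq 1.5 in their processing notes. They deposited raw counts for 12690 gene models and RPKM, which equals count over mappable length and library total. All columns were matched to samples. Tests on the counts used edgeR 4.0.16 under R 4.3.3 (TMM factors, filterByExpr, glmQLFit, glmQLFTest, Benjamini-Hochberg over 11112 gene models) in 1 fit over the 15 libraries on maltose, Avicel, aspen, pine and wheat straw. The 3 libraries on xylan-galactomannan were left out of that fit, since the labels of 1 of them disagree on the medium. The standard error is the absolute log2 fold change over the square root of F. The test was also tried on data simulated from the levels and spread of these libraries. Replicates differed by more than sampling noise.

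The gene models and lists were chosen with earlier results of these data known. Named are, among called genes with no overlap and a mean of at least 3 normalized CPM, the 12 largest rises and falls; the 10 risen and 10 fallen genes with the highest RPKM; every gene with a CAZy family in the study's tables; and in each list up to 4 called members and the highest uncalled one. The aromatic ring and esterase groups, 1448556's comparison with 1437297, and members of rows of neighbours were singled out after their values were seen. Annotations (CAZy family, KOG and EC number, predicted signal peptide) are from the study's tables for 330 gene models, and neighbours from RefSeq's Pycco1 annotation, which matched 12680 models by locus tag and gives no chromosome names. Alternatives were RLE factors, library totals alone, DESeq2 1.42.0, no filter, 6 or 18 libraries, Bonferroni adjustment, a replicate block, other fold limits, longer rows of neighbours and leaving out each library. Plots were made with matplotlib 3.10.9.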

Additional observations from a re-analysis of the deposited data

How the results depend on the processing

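The main counts were 2170 genes higher and 1644 lower on aspen. Leaving out 1 library at a time gave 2080 to 2207 higher and 1508 to 1659 lower. Bonferroni adjustment left 921 and 522, and a log2 limit of 2 left 985 and 489. Without a fold limit 3089 were higher and 2933 lower. Library totals without TMM factors gave 1950 and 1873 and moved the median of all genes by -0.097 on the log2 scale. DESeq2, RLE factors, no filter, 6 or 18 libraries and the replicate block kept both counts within 1.5 times. The block gave 2159 and 1642; the numbers were not taken as pairs, since same-numbered libraries deviated together with r = 0.227, -0.1 and 0.254. No named gene that had risen or fallen changed sign under any of these. With Bonferroni, 60 named genes lost the call, among them 270010, 1435501, 1389216 and 1466495. The 194 named genes include a few that had no call to lose. By list, Bonferroni kept 3 of 6 cytochrome P450 calls, 1 of 2 mannan and galactan calls and 1 of 2 starch and maltose calls. Of the 102 risen genes listed for pine or wheat straw but not for aspen, Bonferroni kept 39 and a log2 limit of 2 kept 35. The 1 fall in that list was lost with either. A log2 limit of 2 kept 5 of 8 peptidase calls and no starch and maltose call. Analyses of protein and promoter sequences, planned as alternatives on N-terminal hydrophobicity, protein similarity and motifs, were not run because no such sequences were at hand. With 3 cultures a group, standard errors of named genes reached 1.44 on the log2 scale, and where a maltose library held 3 counts or fewer the fold rests mainly on those counts.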

Other observations

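Annotated families outside the groups described above also rose. The GH16 genes 1445175 and 1372016, of a family acting on beta-glucans including those of the fungal wall, rose by 1.97 ± 0.36 and 1.30 ± 0.24 on the log2 scale (edgeR, adjusted p = 2.59e-04 and 2.89e-04). The first was at 41.6, 29.8 and 56.8 normalized CPM on maltose and at 160, 134 and 208 on aspen, and its level on aspen also exceeded pine by 1.59 ± 0.36 and wheat straw by 2.83 ± 0.37. The expansin-type gene 316489 rose by 1.08 ± 0.26, and without maltose 3 its log2 fold change was 0.95, under the threshold. The GH47 genes, a family of alpha-mannosidases that trim glycans of secreted proteins, rose by 3.00 ± 0.45 (1369367) and 1.08 ± 0.28 (1423703), and the GH92 gene 1373467 by 1.92 ± 0.39. Gene 1423703 fell below the threshold with library totals alone (0.95), without aspen 3 (0.94), without maltose 1 (1.00) and without maltose 2 (0.99).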
